A study of Mus musculus with 2 samples.

Results

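TGF-beta signalling was followed through 10 genes, taken by symbol from the 19070 genes counted in each section: the ligands Tgfb1, Tgfb2 and Tgfb3, the latent binding protein gene Ltbp1, the receptors Tgfbr1 and Tgfbr2, the co-receptors Tgfbr3 and Eng, the signal transducer Smad3 and the inhibitory Smad gene Smad7. They were counted in coronal brain sections of male C57Bl6 mice aged 3 months, taken either 3 days or 28 days after CCI (controlled cortical impact, in which an impactor bruises the cortex). For the impact, the paper states, mice were anaesthetised with ketamine and medetomidine and given buprenorphine and bupivacaine. A bone flap above the right parietal lobe was removed, and no other treatment is described. Each time point had 1 section from 1 mouse, and no section from a sham-operated mouse was analysed here. The surgery and the impact therefore cannot be told apart. The assay, Visium HD, counts gene probes hybridised to fixed tissue as unique molecular identifiers (UMIs) on a grid of barcoded squares, used here as bins of 16 µm that can each hold parts of several cells.

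TGF-beta ligands are secreted in a latent form that latent binding proteins tether to the matrix, and integrins, thrombospondins and proteases release the active ligand. The active ligand brings the type 2 receptor Tgfbr2 and the type 1 receptor Tgfbr1 together, often with the help of the co-receptors betaglycan (Tgfbr3) or endoglin (Eng), and the receptors phosphorylate Smad3, which enters the nucleus with Smad4. Smad7 is induced by the pathway and blocks its receptors. In the brain the pathway is known for keeping microglia in their resting state, for the stability of vessels and for scar formation after injury.

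The upstream sequences of Tgfb1, Tgfbr1 and Tgfbr2, a ligand and the receptor pair through which it signals, are shown. These members were chosen because they were higher together in the lesion zone defined below. The sequences are from RefSeq, whose table listed 1 start for Tgfb1 and Tgfbr2 and 2 for Tgfbr1, of which the one at the first base of the gene is used. Each sequence is the 250 bases before the start on build GRCm38.p6, written 5′ to 3′ along the gene's strand. These are chr7:25686752-25687001 (plus strand) for Tgfb1, chr4:47352972-47353221 (plus strand) for Tgfbr1 and chr9:116175364-116175613 (minus strand) for Tgfbr2. Capitals mark the core SMAD box (CAGAC or its reverse complement GTCTG) and the core bound by ETS factors (GGAAG or its reverse complement CTTCC).
Tgfb1: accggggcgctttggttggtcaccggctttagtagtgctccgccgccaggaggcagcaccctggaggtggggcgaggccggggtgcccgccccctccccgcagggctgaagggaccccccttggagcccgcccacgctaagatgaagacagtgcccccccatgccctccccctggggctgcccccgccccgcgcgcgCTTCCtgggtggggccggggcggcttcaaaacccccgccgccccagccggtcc
Tgfbr1: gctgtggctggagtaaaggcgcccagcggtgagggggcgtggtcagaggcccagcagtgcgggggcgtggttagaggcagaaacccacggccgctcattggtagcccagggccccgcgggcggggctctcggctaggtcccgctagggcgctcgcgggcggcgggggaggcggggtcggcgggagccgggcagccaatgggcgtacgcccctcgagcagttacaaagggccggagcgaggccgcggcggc
Tgfbr2: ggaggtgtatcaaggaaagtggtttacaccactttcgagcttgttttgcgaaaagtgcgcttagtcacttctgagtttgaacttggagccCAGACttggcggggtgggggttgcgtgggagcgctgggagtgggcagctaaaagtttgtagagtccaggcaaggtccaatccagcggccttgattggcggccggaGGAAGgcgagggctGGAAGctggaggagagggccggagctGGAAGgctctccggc
Tgfbr2 held 1 SMAD box and 3 ETS cores, Tgfb1 held 1 ETS core and Tgfbr1 held neither. Over all 32851 promoters of the same table and length, 42.2% held a SMAD box and 64.1% held an ETS core, so these short motifs are common. The GC content was 75.2% for Tgfb1, 74.8% for Tgfbr1 and 58.4% for Tgfbr2.

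The 3 days section held 121967 bins with 120615873 UMIs (median 836 per bin) and the 28 days section 105589 bins with 82422389 UMIs (median 596 per bin), and the 10 genes summed to 29885 and 21580 UMIs in the bins. The injured side was the part of the array below column 130 at 3 days and below column 240 at 28 days. Unequal amounts of each side were captured, 2.08 mm of the injured and 4.62 mm of the opposite side at 3 days against 3.84 and 2.86 mm at 28 days. The lesion zone was placed on the injured side with 6 phagocyte genes (Cd68, Lyz2, Ctsz, Lgals3, Cd52 and Laptm5) that are no members, and its reflection across the dividing column, the mirror zone, was the reference. The zone covered 526 of 2588 injured tiles of 64 µm at 3 days (20.3%) and 931 of 3259 at 28 days (28.6%). A bin of the zone held 594 UMIs on average at 3 days, where the mirror zone held 911, and at 28 days the values were 527 and 636. Genes of neurons, oligodendrocytes and choroid plexus marked both sections as brain (at least 2 UMIs of the excitatory neuron genes in 19.1% and 14.5% of bins). Levels are given as counts per 1000000 UMIs of the area (CPM), and intervals are at 95% and cover counting error only. Because each time point had 1 section, nothing was tested against the spread between mice. Probes differ in efficiency, so levels are compared between areas for a gene and not between genes.

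By side, Tgfb1 stood out in both sections, followed by the receptor gene Tgfbr2, and Tgfbr1 joined them at 28 days. At 3 days Tgfb1 was at 24.1 CPM on the injured against 9.18 CPM on the opposite side (2.62-fold, log2 ratio 1.39, interval 1.25 to 1.53), and at 28 days at 25.9 against 7.53 CPM (3.44-fold, log2 1.78, 1.60 to 1.97). At 3 days 54.3% of its UMIs, and at 28 days 73.9%, lay on the injured side. That side held 39116 of 119617 bins with at least 100 UMIs at 3 days and 49478 of 103316 at 28 days. Tgfbr2 was at 49.6 against 25.8 CPM at 3 days (log2 0.94, 0.85 to 1.03) and at 50.6 against 23.0 CPM at 28 days (log2 1.14, 1.03 to 1.25). The difference was of similar size in both sections for this receptor, whereas it was larger at 28 days for Tgfbr1. Tgfbr1 was at 46.5 against 31.8 CPM at 3 days (log2 0.55, 0.46 to 0.63) and at 74.3 against 33.8 CPM at 28 days (log2 1.14, 1.05 to 1.23). Eng, the endothelial co-receptor, showed the opposite order in time, with 65.0 against 35.6 CPM at 3 days (log2 0.87, 0.79 to 0.95) and 40.7 against 36.8 CPM at 28 days (log2 0.14, 0.04 to 0.24). The small 28 days difference of Eng turned to -0.02 when UMIs per bin were compared.

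The remaining ligands, Ltbp1, Tgfbr3 and the Smad genes had smaller log2 ratios than Tgfb1 and Tgfbr2 in both sections. Tgfb2 was at 31.8 against 21.2 CPM at 3 days (log2 0.59) and 29.7 against 24.7 CPM at 28 days (log2 0.27). Tgfbr3 was at 22.4 against 14.4 CPM (log2 0.64) and 18.9 against 16.1 CPM (log2 0.23). Choroid plexus held high levels of both genes, and without choroid plexus tiles these ratios were 0.26 and 0.13 for Tgfb2 and 0.23 and 0.04 for Tgfbr3. Tgfb3 (log2 0.37 and 0.20) and Ltbp1 (log2 0.57 and 0.31) had ratios above 0 that did not reach a fold of 1.5. Smad7 was at 27.4 against 21.7 CPM at 3 days (log2 0.34) and at 21.8 against 22.5 CPM at 28 days (log2 -0.05, -0.18 to 0.09). Smad3 was the member with a lower level on the injured side at 3 days, 22.3 against 32.7 CPM (log2 -0.55, -0.67 to -0.44), and it was at 34.2 against 25.9 CPM at 28 days (log2 0.40, 0.29 to 0.52). The anatomy captured on the sides differed at 3 days. Of 288 striatal tiles, led by Adora2a, where Smad3 was at 67.6 CPM, 1 lay on the injured side, while 166 tiles led by Tgm1, Lgals3 and Klk6, with Drd1 and Rgs9 of the striatal markers among their top genes, all lay on it and held 48.9 CPM. With the opposite side limited to the captured width of the injured side, the Smad3 ratio at 3 days was 0.08. At 28 days this limit removed nothing, as the injured side was the wider one, and anatomy was uneven there too. Of the 3 tile clusters with the highest Smad3 level at 28 days, 12 of 41, 191 of 280 and 99 of 110 tiles lay on the injured side.

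Counted by a fold of 1.5, 5 of 10 members were higher on the injured side at 3 days (Tgfb1, Tgfb2, Tgfbr2, Tgfbr3 and Eng), where 21.7% of 16164 genes were, and none was lower, where 5.24% of genes were. Without choroid plexus tiles 3 were higher and 1, Smad3, was lower (log2 -0.60), and Smad3 also passed the fold with TMM scaling (-0.69), by UMIs per bin (-0.65) and with the dividing column at the median column (-0.70). The share over all genes was not counted under these alternatives. At 28 days 3 of 10 were higher (Tgfb1, Tgfbr1 and Tgfbr2), where 13.6% of 15640 genes were, and none was lower, where 2.17% of genes were. The median log2 ratio of the members was 0.58 at 3 days and 0.29 at 28 days, against 0.14 and 0.04 over all genes tested. All 10 members passed the minimum of 20 UMIs in every comparison.

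**Figure D1:**
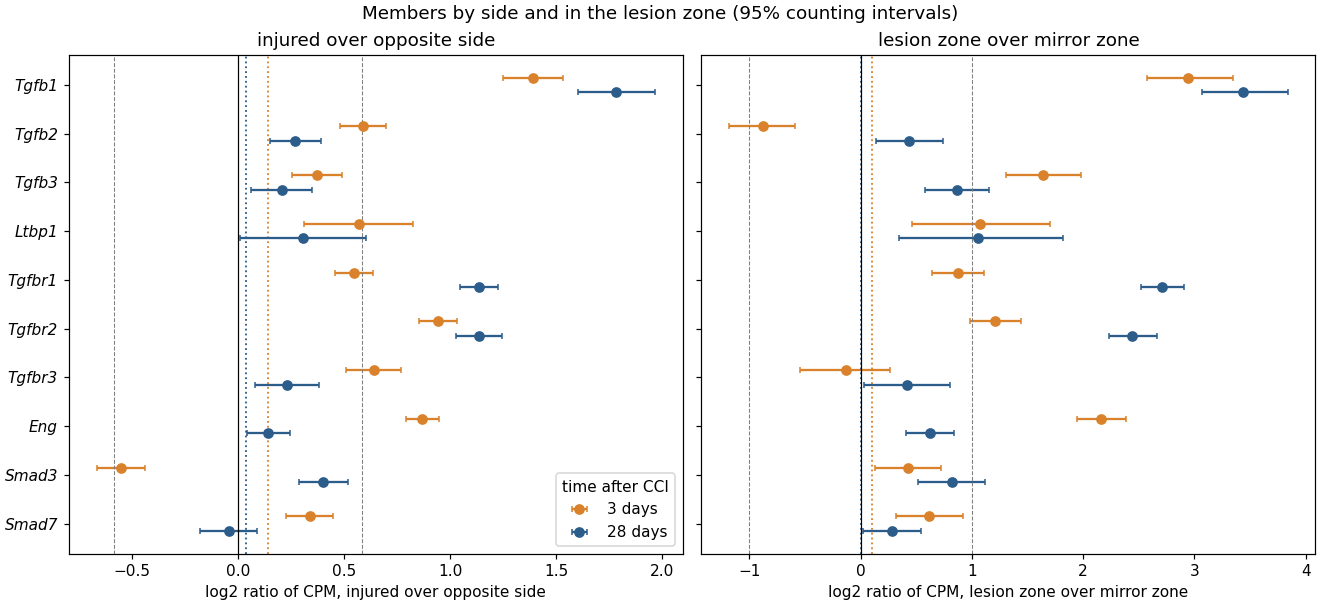
Log2 ratio of the CPM of each member between the injured and the opposite side (left) and between the zone and its mirror (right), with 95% counting intervals, 3 days in orange and 28 days in blue, 1 section each. Dotted lines give the median over all genes tested and dashed lines the fold of 1.5 (left) or 2 (right); Tgfb1 lies farthest to the right in both panels, at 2.94 and 3.43 in the zone, and Tgfb2 lies left of 0 in the zone at 3 days.

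In the lesion zone Tgfb1 was the member with the largest ratio in both sections. Phagocyte genes placed the zone, so the ratios of members expressed by phagocytes are in part fixed by that choice. At 3 days its level was 81.2 CPM there against 10.5 CPM in the mirror zone (366 and 67 UMIs, 7.69-fold, log2 2.94, interval 2.57 to 3.35), and at 28 days 90.2 against 8.29 CPM (664 and 64 UMIs, 10.8-fold, log2 3.43, 3.07 to 3.84). The zone levels of the sections were thus close to each other. Tgfb3 was at 54.1 against 17.4 CPM at 3 days (log2 1.64, 1.31 to 1.98) and at 38.4 against 21.1 CPM at 28 days (log2 0.86, 0.58 to 1.15). Ltbp1, whose product tethers the latent ligands, had few UMIs (58 and 39 at 3 days, 50 and 25 at 28 days) and was about doubled in both sections, with log2 ratios of 1.07 (0.47 to 1.70) and 1.05 (0.35 to 1.82). Tgfb2 went against the other ligands at 3 days, with 29.9 CPM against 55.2 CPM (log2 -0.88, -1.18 to -0.59), and was at 28.9 against 21.4 CPM at 28 days (log2 0.44, 0.14 to 0.74). Choroid plexus genes moved the same way at 3 days, at 1255 against 5155 CPM for the sum of 7 genes, all 7 of them lower by at least 2-fold. Without choroid plexus tiles the Tgfb2 ratio was -0.86, and the cause was not tested. Against the whole opposite side it was 0.51.

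The receptor genes Tgfbr1 and Tgfbr2 were much higher in the zone at 28 days than at 3 days. Tgfbr1 was at 75.4 against 41.2 CPM at 3 days (log2 0.87, 0.64 to 1.11) and at 219 against 33.4 CPM at 28 days (1609 and 258 UMIs, 6.53-fold, log2 2.71, 2.52 to 2.90). Tgfbr2 was at 90.5 against 39.1 CPM (log2 1.21, 0.98 to 1.44) and at 147 against 26.9 CPM (5.44-fold, log2 2.44, 2.23 to 2.67). The log2 ratio at 28 days exceeded that at 3 days by 1.83 for Tgfbr1 (1.53 to 2.13) and by 1.23 for Tgfbr2 (0.92 to 1.55), between 2 mice. Eng changed in the other direction, from 157 against 35.0 CPM at 3 days (4.47-fold, log2 2.16, 1.94 to 2.39) to 61.8 against 40.2 CPM at 28 days (log2 0.62, 0.41 to 0.84). Tgfbr3 was at 19.1 against 21.0 CPM (log2 -0.13, -0.55 to 0.26) and 17.7 against 13.2 CPM (log2 0.42, 0.03 to 0.81), the smallest ratios among the receptor and co-receptor genes. The Smad genes stayed under a fold of 2 in both sections. Smad3 was at 41.5 against 30.8 CPM at 3 days (log2 0.43) and 33.8 against 19.2 CPM at 28 days (log2 0.82), and Smad7 at 43.2 against 28.2 CPM (log2 0.62) and 36.8 against 30.3 CPM (log2 0.28). By UMIs per bin, which does not correct for the shallower zone, every log2 ratio at 3 days was lower by 0.62, and Smad3 then stood at -0.19 and Smad7 at 0.0.

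By a fold of 2, 5 of 10 members were higher in the zone at 3 days (Tgfb1, Tgfb3, Ltbp1, Tgfbr2 and Eng), where 16.9% of 13408 genes were, and none was lower, where 9.22% of genes were. By UMIs per bin 3 were higher and 1, Tgfb2, was lower (log2 -1.5). That scale moved every log2 ratio by -0.62, and the share over all genes was not counted on it. At 28 days 4 of 10 were higher (Tgfb1, Ltbp1, Tgfbr1 and Tgfbr2), where 16.5% of 13620 genes were, and none was lower, where 7.56% of genes were. The median log2 ratio of the members was 0.97 and 0.84, against 0.11 and 0.01 over all genes tested. Cell type markers moved in the same areas. The phagocyte genes that placed the zone are expressed by microglia and macrophages, so a higher sum of their markers there is in part fixed by that choice. The same holds for Tgfb1, Tgfbr1 and Tgfbr2, which were higher in bins with microglia genes on the opposite side too. The counts of members beside those of all genes are therefore descriptions. The 6 microglia genes, among them Tmem119, P2ry12 and C1qa, summed to 2036 CPM against 608 CPM at 3 days and, at 28 days, to 4428 against 351 CPM, where all 6 were higher by at least 2-fold. The 6 endothelial genes summed to 569 and 233 CPM at 3 days, 3 of them higher by at least 2-fold, and to 424 and 301 CPM at 28 days, with none. Other lists moved too. Smooth muscle genes summed to 653 against 73.7 CPM and 200 against 102 CPM, 6 of 6 oligodendrocyte and 4 of 4 macrophage genes were higher by at least 2-fold at 3 days, and 5 of 6 astrocyte, 7 of 7 fibroblast and 5 of 5 ependymal genes at 28 days. Excitatory neuron genes were lower, 3 of 3 in both sections (321 against 1439 CPM and 295 against 769 CPM), as were 3 of 3 inhibitory neuron genes at 28 days. The part of any of these cell types in the members' ratios was not tested. In summed bins more cells of a type and more RNA per cell cannot be told apart.

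**Figure D2:**
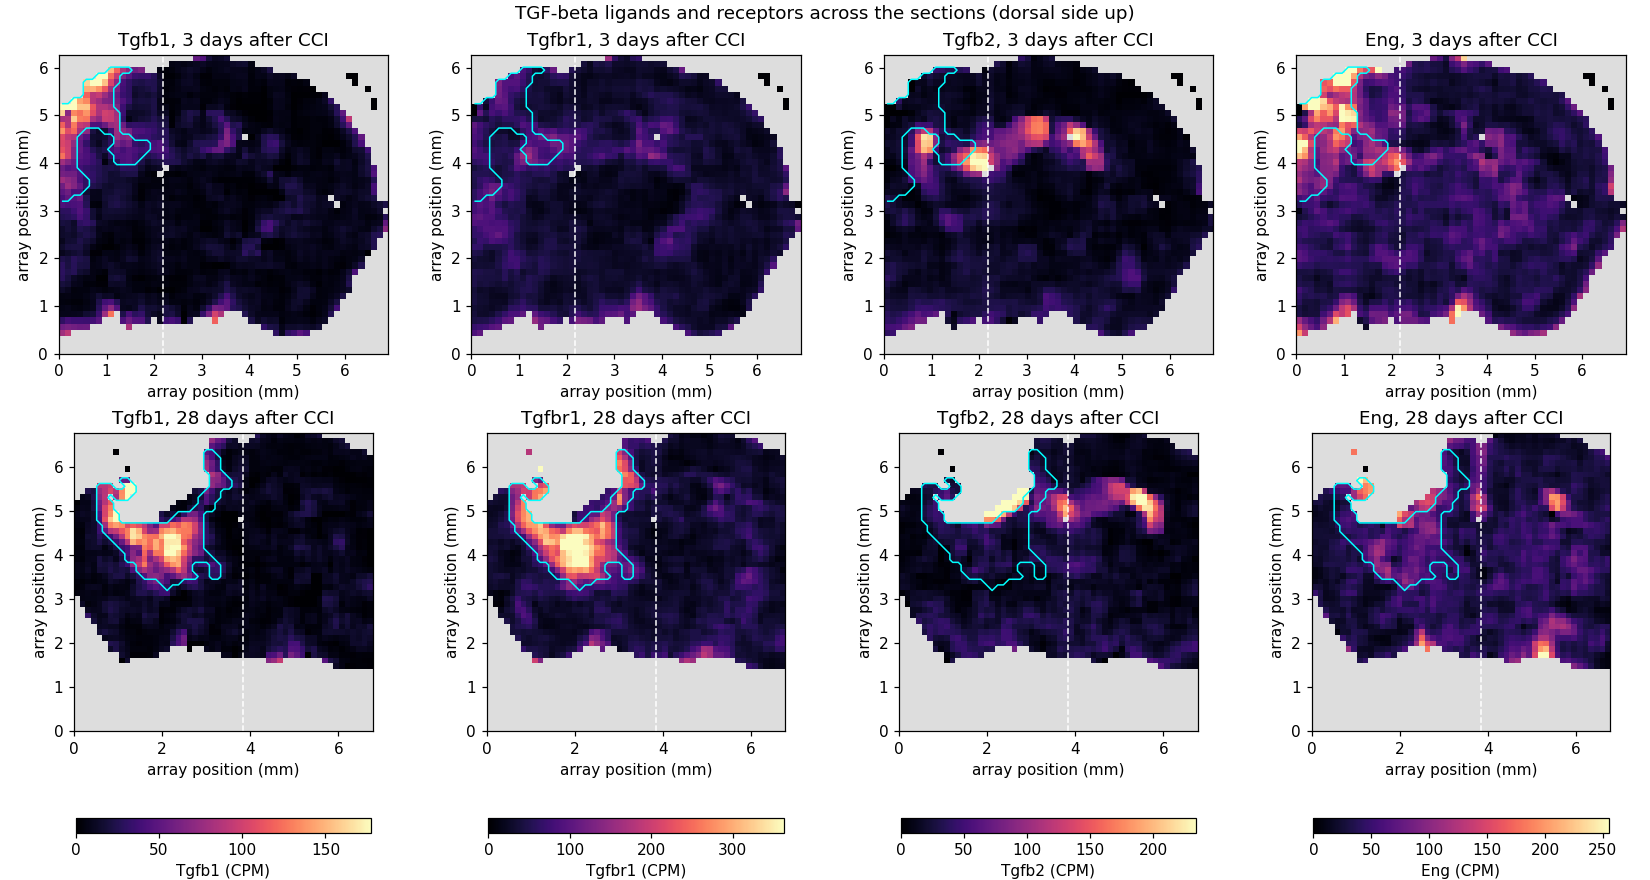
Maps of Tgfb1, Tgfbr1, Tgfb2 and Eng (CPM in tiles of 128 µm averaged over 3 by 3 tiles; colour scale shared by both sections of a gene, with the highest tiles clipped) at 3 days (upper row) and 28 days (lower row), axes in mm of the array, dorsal side up and injured side to the left of the dashed line. The cyan line outlines the lesion zone; Tgfb1 and, at 28 days, Tgfbr1 fill it, Tgfb2 is highest in spots outside it, and Eng is high in the zone at 3 days.

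With distance from the zone the ratios of Tgfb1 and Tgfbr1 fell over a shorter range at 28 days than at 3 days, and other members had other courses. Tgfb1 had a log2 ratio over the reflected band of 1.24 (0.82 to 1.68) within 250 µm of the zone, 0.98 from 250 to 500 µm, 1.49 (0.90 to 2.14) from 500 to 1000 µm and 0.06 (-0.41 to 0.52) from 1000 to 2000 µm at 3 days. At 28 days the same bands gave 1.68 (1.04 to 2.42), 0.27 (-0.34 to 0.91), 0.04 and -0.16. Beyond 250 µm the intervals of Tgfb1 at 28 days all included 0, while at 3 days this was so beyond 1000 µm. Tgfbr2 declined in steps at 3 days (1.08, 0.82, 0.59 and 0.43), and at 28 days it was at 0.95 within 250 µm and at 0.14, -0.32 and 0.35 farther out. Tgfbr1 had 0.52, 0.78, 0.56 and 0.42 at 3 days and 0.93, 0.21, -0.09 and -0.10 at 28 days. Eng at 3 days was at 1.44 (1.19 to 1.70) within 250 µm and at 0.24 from 250 to 500 µm, so that its rise was close to the zone. Tgfbr3 was higher just outside the zone than in it, where its ratio was 1.61 at 3 days (1.25 to 2.00) and 1.5 at 28 days (1.06 to 1.98) for the band within 250 µm. This rests on where the zone ends, since with a wider zone, set at percentile 95, the ratio of Tgfbr3 in the zone was 0.86 at 3 days and 1.03 at 28 days. Choroid plexus, which held high levels of Tgfbr3 and Tgfb2, was unevenly placed as well. At 3 days 67 of its 99 tiles lay on the injured side and 1 in the zone, and at 28 days 57 of 111 and 0. The bands were not run without these tiles. Tgfb2 had its highest ratio at 3 days from 250 to 500 µm (1.24, 0.86 to 1.65), and at 28 days Smad3 (1.02, 0.71 to 1.34) and, among the bands outside the zone, Tgfb3 (0.74, 0.35 to 1.15) had theirs beyond 1000 µm. That band held 9209 bins at 28 days and its reflection 6414, as less of the opposite side was captured. Smad3 at 28 days was at 0.37 from 250 to 500 µm and 0.52 from 500 to 1000 µm. With only bins that had a mirror bin on tissue, these 2 values were -0.17 and -0.19. The median over all genes lay between -0.06 and 0.13 in these bands.

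**Figure D3:**
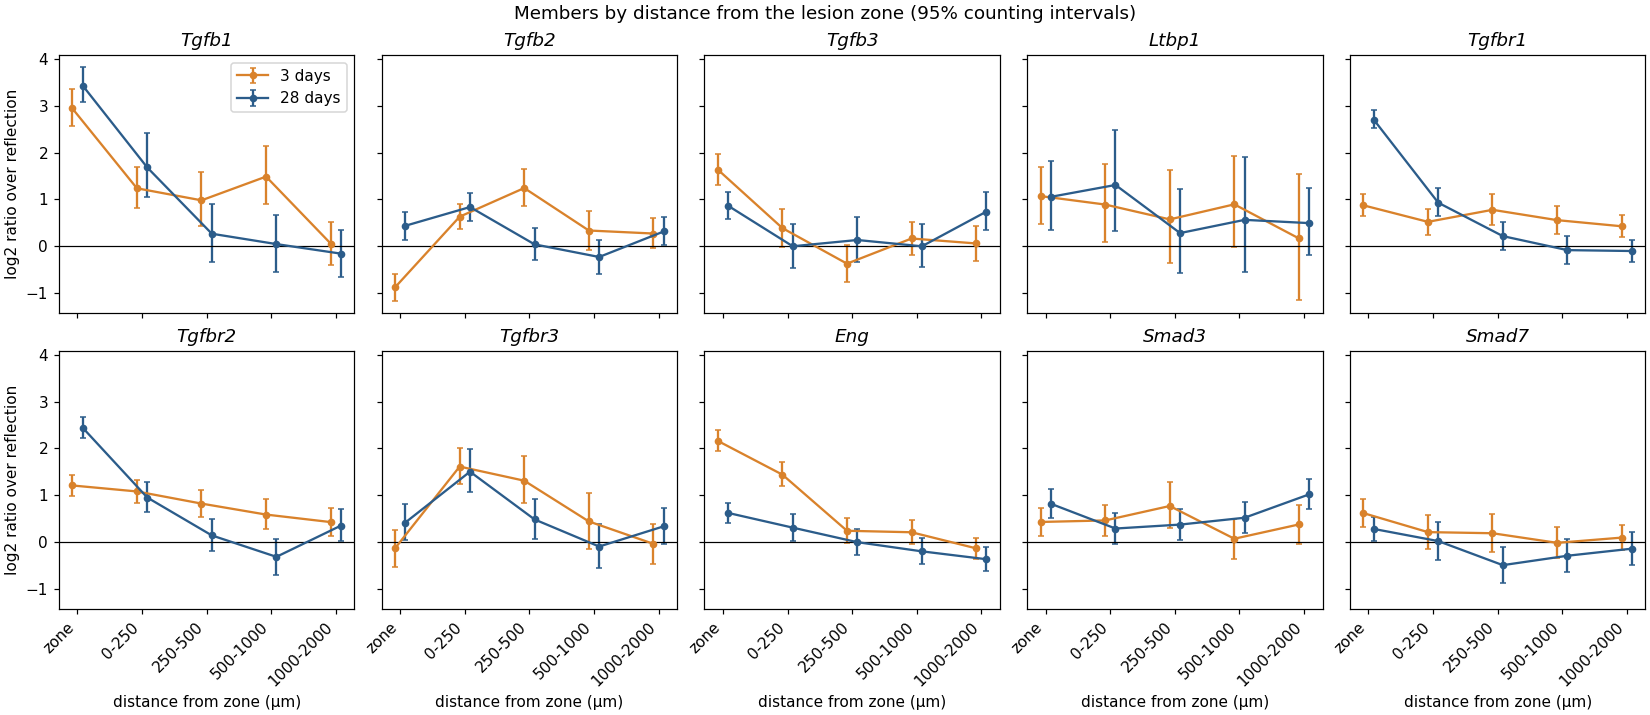
Log2 ratio of each member's CPM in the lesion zone and in bands of rising distance from it (µm) over the reflected area of the opposite side, with 95% counting intervals, 3 days in orange and 28 days in blue, 1 section each. At 28 days Tgfb1, Tgfbr1 and Tgfbr2 drop from 3.43, 2.71 and 2.44 in the zone to 0.27, 0.21 and 0.14 at 250 to 500 µm, and Tgfbr3 peaks in the first band.

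The highest level of each ligand lay in a different cluster of the anatomy. Tiles of 64 µm were clustered without the member genes, and a cluster carries the name of a region where at least 3 of its markers were among the top 10 genes, and its leading genes otherwise. Tgfb1 was highest in tiles of the zone. At 3 days it was at 104 CPM (89.7 to 120) in 207 tiles led by Hba-a2, Hbb-bs and Arg1, of which 190 lay in the zone. The next level at 3 days was 70.5 CPM (57.3 to 86.0) in 145 tiles led by Aldh1a2, Acta2 and Itih2, of which 3 lay in the zone. At 28 days it was at 115 CPM (101 to 129) in 199 tiles led by Lcn2, Mmp3 and C3 and at 110 CPM (97.2 to 124) in 337 tiles led by Spp1, Cst7 and Lag3, intervals that overlapped. Tgfb1 had a median over the clusters of 11.1 CPM at 3 days and 8.7 CPM at 28 days.

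Tgfb2 was highest in choroid plexus tiles, led by Ttr, at 218 CPM (198 to 240) in 99 tiles at 3 days and 252 CPM (228 to 278) in 111 tiles at 28 days, and its level there was 218 CPM on both sides at 3 days and 267 CPM on the injured against 232 CPM on the opposite side at 28 days. The next level of Tgfb2 was 106 CPM (96.9 to 117) in tiles led by Il16, Iyd and Npy2r at 3 days and 82.4 CPM (71.6 to 94.3) in hippocampal pyramidal tiles, led by Spink8, Cabp7 and Il16, at 28 days, and the Aldh1a2 tiles came next at 3 days with 75.6 CPM. Of the Il16 and hippocampal tiles 11 of 190 and 22 of 154 lay on the injured side. Habenular tiles led by Chrnb4 and Pou4f1 held 69.5 CPM at 28 days, and thalamic tiles held 22.8 CPM at 28 days.

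In both sections Tgfb3, Ltbp1 and Eng were highest in tiles with the contractile gene Acta2 among the leading genes. At 3 days these tiles also held the highest levels of Tgfbr1, Tgfbr2 and Tgfbr3. Their top 10 genes at 3 days were mixed, with Ogn, Slc22a6, Ranbp3l and Fmod beside the contractile genes Acta2, Lmod1 and Myh11. In the 145 tiles led by Aldh1a2, Acta2 and Itih2 at 3 days, Tgfb3 was at 132 CPM (113 to 152), Ltbp1 at 53.3 CPM (41.8 to 66.9) and Eng at 239 CPM (214 to 266). In the 88 tiles led by Acta2, Tagln and Myh11 at 28 days they were at 139 CPM (114 to 168), 67.8 CPM (50.6 to 88.9) and 255 CPM (221 to 294). For Tgfb3 at 3 days the next cluster, led by Slc47a1, was at 98.4 CPM (83.1 to 116), and the intervals overlapped. For Ltbp1 the next cluster was at 16.3 CPM at 3 days and 21.0 CPM at 28 days, with intervals that did not overlap the highest. The zone tiles led by Hba-a2 had the second level of Eng at 3 days, 213 CPM (192 to 235), whose interval overlapped that of the highest.

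Tgfbr1 reached 272 CPM (252 to 293) in the tiles led by Spp1, 255 CPM (235 to 276) in those led by Lcn2 and 251 CPM (218 to 288) in 191 tiles led by Cd52, Cst7 and Serpina3n at 28 days, 3 levels that did not differ beyond counting error. At 3 days its highest level was 115 CPM (98.0 to 135), and tiles led by the myelin gene Mal held 93.4 CPM. Tgfbr2 was at 196 CPM (179 to 215) in the Lcn2 tiles and 179 CPM (153 to 208) in tiles led by Prg4 and Fmod at 28 days. At 3 days it was at 212 CPM (189 to 238) in the Aldh1a2 tiles and 186 CPM (165 to 209) in tiles led by Slc47a1, intervals that overlapped. Tiles led by the ciliary gene Ccdc153 came next at 3 days with 137 CPM (120 to 155). Choroid plexus tiles held 135 CPM of Tgfbr2 (119 to 152) at 3 days. Tgfbr3 was highest in the Aldh1a2 tiles at 3 days, 209 CPM (185 to 234), and in the Prg4 tiles at 28 days, 186 CPM (160 to 216), followed by choroid plexus tiles (158 and 165 CPM). It was at 7.3 and 9.1 CPM in thalamic tiles.

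Smad3 was highest in tiles led by neuronal genes, with 67.6 CPM (59.3 to 76.8) in striatal tiles and 63.7 CPM (58.3 to 69.5) in tiles led by Vip and Lamp5 at 3 days, and 105 CPM (86.4 to 125) in 41 dentate granule tiles led by Dsp and C1ql2 at 28 days. It was at 9.1 and 12.5 CPM in thalamus. Smad7 was highest in myelin-rich tiles, with 94.5 CPM (81.0 to 110) in 469 tiles led by Mal and Anln at 3 days and 89.6 CPM (73.3 to 108) in 344 tiles led by Thbs4, Anln and Trf at 28 days.

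Bins that held cell type markers placed the members among cells. A bin counted as holding a type with at least 2 UMIs of its marker list and was set against bins with none. Tgfb1 was higher in bins with microglia genes, by log2 2.47 at 3 days and 3.50 at 28 days, and so were Tgfbr1 (2.11 and 2.77) and Tgfbr2 (1.56 and 2.42). On the opposite side alone the microglia ratios were 2.23 and 2.24 for Tgfb1, 2.26 and 2.14 for Tgfbr1 and 1.57 and 1.25 for Tgfbr2. There the ratios of Tgfb1 and Tgfbr1 were of like size in both sections. Bins with macrophage genes, only 250 and 140, had ratios of 2.77 and 2.38 for Tgfb1 and of 2.82 and 2.29 for Tgfbr2. Eng was highest by this measure in bins with endothelial (2.81 and 2.66) and smooth muscle genes (2.65 and 3.18), Ltbp1 in bins with smooth muscle genes (3.34 and 4.17), and Tgfb3 likewise (2.47 and 2.77). Tgfb2 was highest in bins with choroid plexus (2.84 and 3.0) and ependymal genes (2.41 and 2.32). Tgfbr3 was high in bins with choroid plexus (3.04 and 3.19), fibroblast (3.11 and 2.90) and ependymal genes (2.47 and 2.33).

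The Smad genes differed from each other by this measure. In bins with the excitatory neuron genes Slc17a7, Slc17a6 and Neurod6, Smad3 was higher (0.74 and 0.61) and the other 9 members were lower, but these bins were deeper (median 1469 against 658 UMIs at 3 days). Among the 2% of bins with the highest share of these markers the Smad3 ratio was 0.13 and 0.04, and that of Tgfb2 was 1.02 and 0.55. Smad7 was higher in bins with oligodendrocyte genes (0.69 and 0.91), a list that 64.9% and 60.9% of bins passed, and in the 2% of bins with the highest share of those genes its ratio was 2.28 and 1.89. The T cell list was at or near 0, with 10 and 15 bins holding at least 2 UMIs, and no member is described by it.

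**Figure D4:**
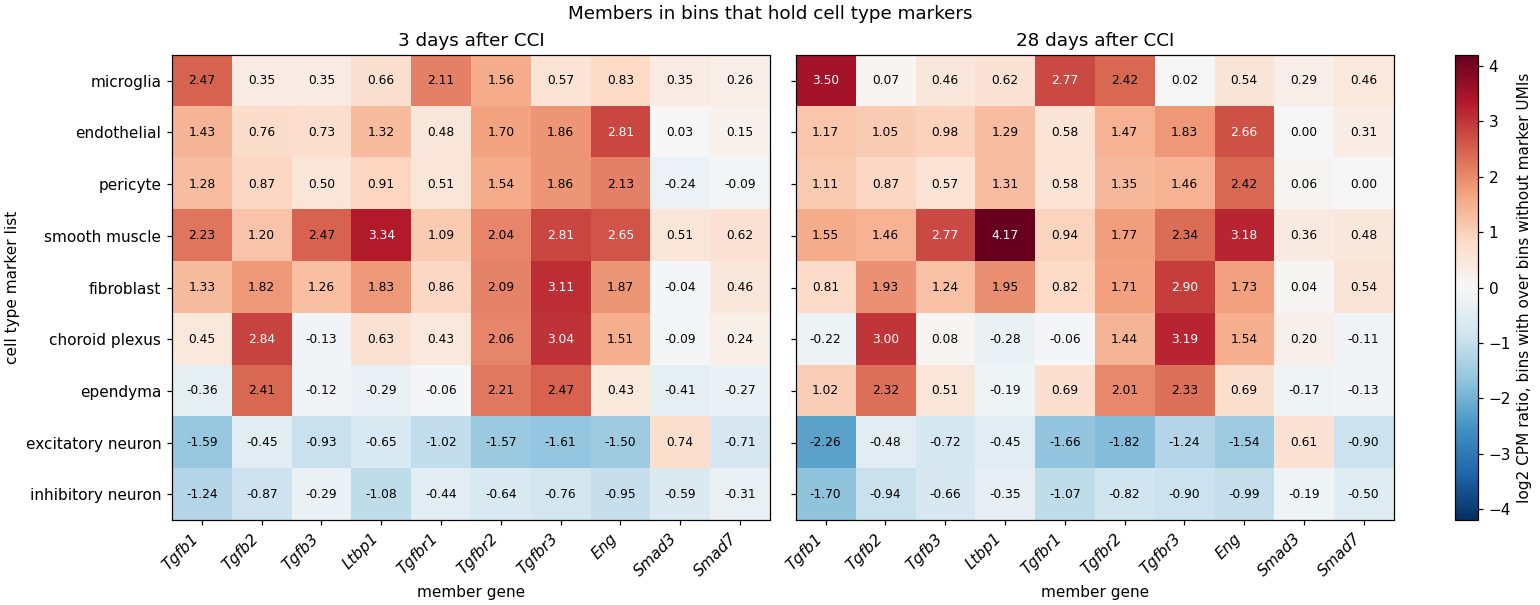
Log2 ratio of each member's CPM (columns) between bins with at least 2 UMIs of a cell type marker list (rows) and bins with none, 3 days left and 28 days right, red where higher in bins with the markers. Tgfb1, Tgfbr1 and Tgfbr2 are above 0 in the microglia row, Ltbp1 and Tgfb3 are highest in the smooth muscle row, Tgfb2 and Tgfbr3 in the choroid plexus, ependyma and, for Tgfbr3, fibroblast rows, and Smad3 is above 0 in the excitatory neuron row (0.74 and 0.61).

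Among bins with microglia genes, Tgfb1 was higher in the zone than on the opposite side, with 124 against 29.9 CPM at 3 days (log2 2.06, 1.76 to 2.35) and 129 against 26.1 CPM at 28 days (log2 2.30, 1.95 to 2.68). Tgfbr1 in such bins was at 117 against 106 CPM at 3 days (log2 0.15, -0.11 to 0.39) and at 292 against 113 CPM at 28 days (log2 1.37, 1.2 to 1.56). Tgfbr2 was at 124 against 60.4 CPM (log2 1.03, 0.77 to 1.29) and at 193 against 46.3 CPM (log2 2.05, 1.78 to 2.34). For Tgfbr1 the zone was therefore not distinguishable from the opposite side in these bins at 3 days and stood above it at 28 days. In these bins the 6 microglia genes took a larger share of the UMIs in the zone, 5301 against 2646 CPM at 3 days and 6964 against 2739 CPM at 28 days. Bins of the zone were shallower than those of the opposite side (594 against 1030 and 527 against 839 UMIs on average), which by itself raises the share that 2 marker UMIs make up, and the part of either in the ratios was not tested. In bins with endothelial genes Eng was at 573 against 157 CPM at 3 days (log2 1.87, 1.66 to 2.07) and at 168 against 146 CPM at 28 days (log2 0.21, -0.15 to 0.54), with the endothelial genes at 3445 against 2483 CPM and 2943 against 2586 CPM. On the injured side outside the zone, Eng in such bins was 0.21 and 0.34 above the opposite side on the log2 scale.

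The other genes of the pathway were read from lists. These held genes that bind, store or activate the ligands, receive or transmit the signal, limit it or respond to it. The lists were chosen with earlier results of these data known, so their counts beside those of all genes are descriptions. A higher count in the list for storage and activation does not measure the release of active ligand. Of the 17 storage and activation genes that passed the minimum, 14 were higher in the zone by at least 2-fold at 3 days and 11 at 28 days, and none was lower (median log2 1.80 and 1.09), where 16.9% and 16.5% of all genes tested were higher. Thbs1, a thrombospondin that releases active TGF-beta, was at 255 against 3.91 CPM at 3 days (log2 6.0) and 20.5 against 2.20 CPM at 28 days (log2 3.18). Itgb5, an integrin chain that pairs with the alpha v chain, was at 333 against 103 CPM (log2 1.69) and 572 against 80.1 CPM (log2 2.84). These genes thus differed in their order in time. Thbs2 (1.93 and 3.07), Emilin1 (2.09 and 2.53) and the matrix proteoglycan gene Bgn (2.65 and 2.49) were high in both sections, while the latent binding protein genes Ltbp3 (0.89 and 0.43) and Ltbp4 (0.04 and 0.24) and the fibrillin gene Fbn1 (1.09 and 0.21) lay lower.

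Other receptors and Smads of the superfamily had medians near 0 (-0.20 and -0.06 for the receptors, 0.11 and -0.07 for the Smads). Of 9 receptor genes, 1 was higher by at least 2-fold at 3 days (Acvrl1, the endothelial type 1 receptor that works with endoglin, at 46.8 against 12.5 CPM, log2 1.90) and none at 28 days, when Acvrl1 was at 0.38 and Acvr1c was lower (12.1 against 46.9 CPM, log2 -1.95). Bmpr1a (0.40 and 0.46), Bmpr1b (0.15 and 0.53), Acvr1b (-0.50 and -0.39) and Acvr2a (-0.46 and -0.30) were between. Of 5 other Smad genes that passed, none was higher by 2-fold, and Smad9 was lower at 3 days (-1.33, against -0.35 at 28 days). Smad2 (-0.05 and -0.27), Smad4 (0.11 and -0.07), Smad1 (0.13 and -0.06) and Smad5 (0.81 and 0.83) made up the rest. Over all genes tested 16.9% were higher and 9.22% lower at 3 days, and 16.5% and 7.56% at 28 days.

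The negative regulators were mixed. Of 9 genes, 2 were higher by at least 2-fold in each section, Tgif1, a repressor of Smad-driven transcription (2.52 and 3.86), and Pmepa1, a target that sequesters receptor-activated Smads (1.66 and 1.12), a share near the 16.9% and 16.5% over all genes. Ski (0.43 and 0.85) and Smurf2 (0.63 and 0.34) lay between, and the phosphatase gene Ppm1a (-0.76 and -0.75) and the ubiquitin ligase gene Nedd4l (-0.38 and -0.69) were on the low side. Of the superfamily's other ligands and antagonists, 3 of 12 were higher at 3 days and 1 was lower, and 4 of 13 were higher at 28 days, beside 16.9% higher and 9.22% lower over all genes at 3 days and 16.5% higher at 28 days. Gdf15, a stress-induced ligand that falls outside the rule for named genes and was picked after its values were seen, was among both, with 28 UMIs against 1 and 24 against 0. Inhba, the activin A chain, was at 47.5 against 15.3 CPM at 3 days (log2 1.63) and 9.91 against 11.3 CPM at 28 days (log2 -0.18), whereas Bmp6 was at 0.24 and 1.86. Bmp4 was at 1.80 and 2.03, Bmp7 at 0.88 and 1.56, Fstl1 at 0.98 and 0.30, Bmp2 at 0.47 and -0.28, Chrd at -0.66 and -0.66 and Nog at -1.17 and -0.06.

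Genes known to respond to TGF-beta had the highest median of the pathway lists. Of those that passed, 20 of 24 were higher in the zone by at least 2-fold at 3 days and 20 of 25 at 28 days, with none lower (median log2 2.45 and 1.94), beside 16.9% and 16.5% of all genes tested. The collagen gene Col3a1 was at 178 against 8.76 CPM (log2 4.34) and 67.4 against 3.89 CPM (log2 4.09). Tagln, a contractile gene, had a ratio of 4.28 at 3 days and 1.07 at 28 days, while Timp1, an inhibitor of matrix proteases, had 2.49 and 6.17. Among targets with at least 50 UMIs the lowest were Skil (0.40) and Junb (0.81) at 3 days and Skil (0.39) and Id1 (0.87) at 28 days, and Postn, a matrix gene, was among the highest at 28 days (9.78 against 0.65 CPM, log2 3.79). Many of these genes respond to other signals and are expressed by fibroblasts and smooth muscle, whose marker genes moved in the zone as well (smooth muscle sum 653 against 73.7 CPM at 3 days and 200 against 102 CPM at 28 days, fibroblast sum 863 against 727 CPM with 4 of 7 genes higher by at least 2-fold, and 1729 against 591 CPM with 7 of 7), and the part of the makeup was not tested. The lists share genes, so these sums partly count the targets themselves. Acta2 and Tagln are also smooth muscle markers, and Col1a1 and Col1a2 are also fibroblast markers.

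Homeostatic microglia genes that are known to need TGF-beta were on the high side in the zone at 28 days, and 4 of them are also among the microglia markers above. Of 8 genes, 4 were higher by at least 2-fold at 3 days and 7 at 28 days, and none was lower (median 1.0 and 1.53), beside 16.9% and 16.5% of all genes tested. Fcrls was at 361 against 73.8 CPM (log2 2.29) and 536 against 24.5 CPM (log2 4.45). P2ry12 (0.46 and 1.14), Siglech (-0.43 and 0.90), Tmem119 (1.11 and 1.56), Sall1 (1.04 and 1.09) and Gpr34 (0.96 and 2.06) had smaller ratios. The levels are per UMI of the area, so the number of microglia and the level per cell cannot be told apart here.

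**Figure D5:**
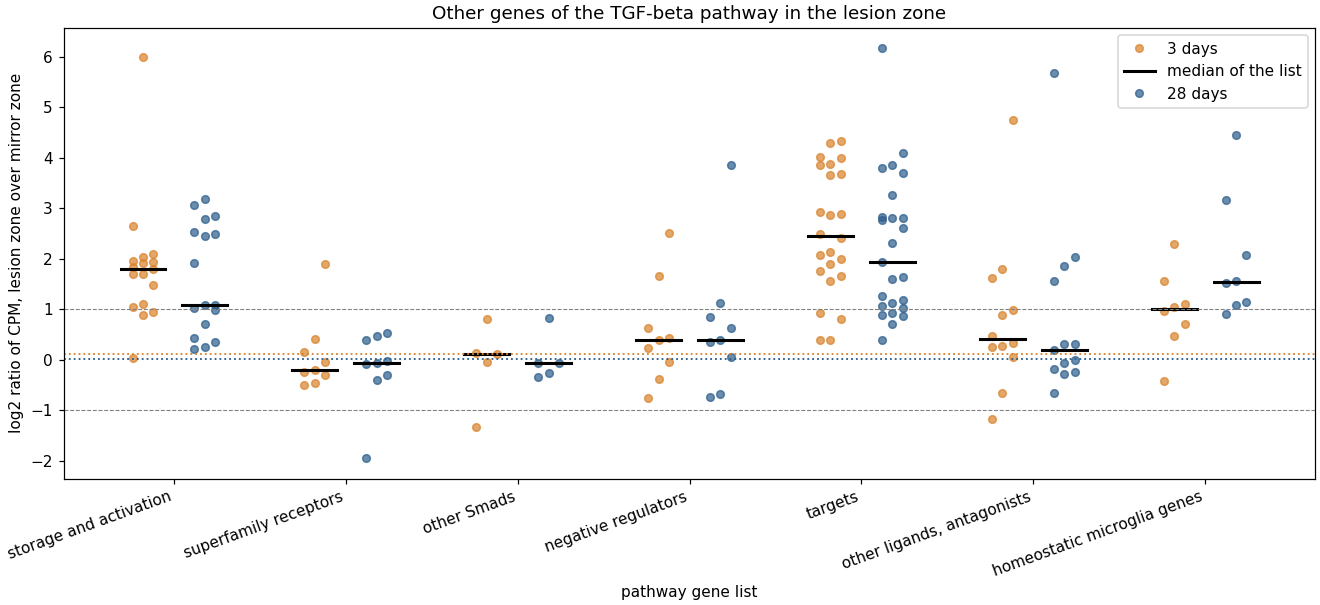
Log2 ratio of the CPM in the lesion zone over the mirror zone for each pathway gene with at least 20 UMIs over both, by list, 3 days in orange and 28 days in blue, 1 point per gene; black bars give list medians, dotted lines the median over all genes tested and dashed lines a 2-fold difference. Targets (medians 2.45 and 1.94) and storage and activation genes (1.80 and 1.09) lie above the other receptors and Smads, which lie around 0.

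Over tiles of 16 by 16 bins, the genes whose pattern was most like a member's are given as Pearson correlations of log2(CPM + 10) in the 514 tiles at 3 days and 455 tiles at 28 days, among 8123 genes. Tiles of a section share library, depth and neighbourhood, so these are descriptions. Tgfb1 was closest to C1qa (0.70 and 0.76), Grn (0.69 and 0.75) and Msn (0.71 and 0.69), and Tgfbr1 to Itgb5 (0.61 and 0.79), Tln1 and C1qa (0.58 and 0.83). Tgfbr2 was closest to Lamp2 (0.73 and 0.72), Tln1 (0.72 and 0.74) and Cd63 (0.71 and 0.75), so that Tln1 was shared by both receptor genes. Tgfb2 was closest to the choroid plexus genes Ecrg4 (0.55 and 0.55), Calml4 and Kl, and Tgfbr3 to Slc13a4 (0.81 and 0.69), Kcnj13 and Igf2. Eng was closest to Igfbp7 (0.75 and 0.56), Vamp8 and Epas1, Ltbp1 to the contractile genes Tagln (0.41 and 0.41), Tpm2 and Acta2, and Tgfb3 to Pmp22 (0.48 and 0.46), Apod and Gsn. Smad3 was closest to Ski (0.59 and 0.53), a repressor of Smad3, with Baiap2 and Egr3, and Smad7 to Fth1 (0.53 and 0.52), Ppp1r14a and Cryab. Tgfb1 with Tgfbr1 had 0.39 at 3 days and 0.68 at 28 days, and Tgfb1 with Tgfbr2 0.46 and 0.60.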

How the data were processed

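Per the file headers, the authors made the deposited values with Space Ranger 4.0.1, and they are raw UMI counts per gene and 16 µm bin with no normalization. The submitters' processing notes name build mm10. A bin needed at least 100 UMIs, which kept 119617 of 121967 and 103316 of 105589 bins. The sections share 84781 bin names, which are array positions and no shared cells. Counts were summed over each area and scaled to CPM. Ratios carry a pseudocount of 0.5 UMI and exact conditional binomial intervals at 95%, levels exact Poisson intervals, checked on simulated counts. UMIs count molecules, but intervals cover counting error only. With 1 section per time point no test was run, and genes count as higher or lower from a fold of 1.5 between sides or 2 between zones, with at least 20 UMIs. A zone tile had a share of the 6 phagocyte genes, averaged over 5 by 5 tiles, past percentile 99 of opposite tiles, in a patch of at least 25 tiles.

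The members and lists were chosen with earlier results of these data known. Named genes were all members, the 3 highest and 2 lowest zone ratios of each list with at least 50 UMIs, and the 3 genes most like each member. Tiles were clustered without the members (2000 genes, 30 principal components, 15 neighbours, Leiden resolution 1). Naming a cluster from any region marker gave names that its leading genes went against, so a region is named here only with at least 3 of its markers among the top 10 genes, a rule chosen after seeing the data, and other clusters are called by leading genes. Olfml3 and Ly6c1 were not analysed here. Some genes that the naming rule picked are not reported here. Alternatives were TMM scaling (edgeR), UMIs per bin, other minimums, dividing columns, zones, resolutions and marker thresholds. Python 3.11.15, numpy 2.4.6, scipy 1.17.1, pandas 2.3.3, scikit-learn 1.9.0, leidenalg 0.10.2, R 4.3.3 and edgeR 4.0.16 were used.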

Additional observations from a re-analysis of the deposited data

Results flagged for a closer look

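Smad3 and Tgfb2 differed in direction between the sections. Smad3 had a log2 ratio of the injured over the opposite side of -0.55 at 3 days and 0.40 at 28 days, and Tgfb2 a log2 ratio of the lesion zone over the mirror zone of -0.88 at 3 days and 0.44 at 28 days. With 1 section per time point the difference was not tested against the spread between mice. For Smad3 the difference in log2 ratio was 0.96 (0.80 to 1.12, counting error only), and for Tgfb2 it was 1.32 (0.91 to 1.73). With the opposite side limited to the injured width Smad3 at 3 days was at 0.08, and against the whole opposite side Tgfb2 at 3 days was at 0.51, so that neither sign held under these alternatives.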

How the results depend on the processing

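No paired analysis was possible because each time point had 1 section, and for the same reason no replicate could be left out. The number of members higher on the injured side at 3 days, 5, was 3 with TMM scaling, by UMIs per bin, with the dividing column moved 10 columns towards the injured side, without choroid plexus tiles and with the opposite side limited to the injured width, and their median was 0.44 with TMM and 0.44 with the dividing column at the median column of the tissue. In the zone at 3 days, UMIs per bin gave a count of 3 and a median of 0.35, and the whole opposite side as reference a median of 1.38. The counts of members at 28 days stayed within 1.5 times their values under the alternatives run. Shares over all genes were not counted under the alternatives, so these counts describe the members alone. The limit to the injured width changed nothing at 28 days, as the injured side was the wider one (3.84 against 2.86 mm). The unequal width of the sides at 28 days was therefore not checked by it. Taking the largest patch alone changed no value in either section, as each zone was 1 patch. TMM moved all log2 ratios by -0.14 and -0.10 at 3 days (sides and zones), and UMIs per bin by -0.10 and -0.62 at 3 days and by -0.16 and -0.27 at 28 days.

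Single values with an interval clear of 0 (for marker bins and regions, under the alternative as well) that changed sign were Smad3 by side at 3 days (0.080 with limited width), Smad3 in the zone at 3 days (-0.19 by UMIs per bin), Tgfb2 in the zone at 3 days (0.51 against the whole opposite side), Eng by side at 28 days (-0.018 by UMIs per bin, -0.0018 with the dividing column moved towards the injured side), and Smad3 at 28 days in the bands from 250 and from 500 µm (-0.17 and -0.19 for bins with a mirror bin on tissue). In the 2% of bins with the highest marker share they were Tgfbr3 in microglia bins at 3 days (-0.96), Tgfb2 in excitatory neuron bins (1.02 and 0.55) and Tgfbr2 in inhibitory neuron bins at 3 days (0.43). With regions named from any marker, a naming not used in the text, they were Ltbp1 (-0.38) and Smad3 (0.79) at 3 days in a group named deep cortical layers from 1 marker, at Leiden resolution 0.5, and Eng (0.54) at 3 days in hypothalamic tiles once 3 markers were asked for. Of the marker-bin values under alternatives, 510 lay outside the counting interval of the value in the text and 470 inside it, so the sizes of those ratios depend on the marker rule. The cause was not tested. Tgfbr3 in the zone at 3 days, whose interval included 0 (-0.13), lay between -0.75 by UMIs per bin and 0.86 with the zone at percentile 95. Ltbp1 had the fewest UMIs of the members, so its ratios are the least precise, and 1 mouse per time point limits every comparison between 3 and 28 days.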
